A study of Mus musculus with 6 samples.

Results

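The CC chemokines described here are 10 mouse genes, Ccl2, Ccl3, Ccl4, Ccl5, Ccl6, Ccl7, Ccl9, Ccl11, Ccl17 and Ccl22, taken by symbol from the 18193 genes that the arrays name. All 10 were found, on 12 probe sets annotated to 1 of these genes each, of 45101 probe sets in all. Ccl6 and Ccl9 had 2 probe sets each and the other members 1. RNA came from 4 kinds of mouse cell, with 1 expression array per sample. Activated FL-Y (1 array) was the SV40-transformed line FL-Y, which has features of follicular dendritic cells, activated, as the labels put it, by anti-LTbeta receptor. FL-Y (1 array) was the same line with no activation named in the labels. FDC (2 arrays) were follicular dendritic cells grown in vitro, and BMDC (2 arrays) were dendritic cells derived from bone marrow. The labels give no strain, age, dose or time, and they do not say whether the 2 arrays of a cell type stem from separate cultures or animals. The spread that the p-values rest on is that of these samples alone and could be technical.

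Chemokines are small secreted proteins that bind receptors on leukocytes and steer their migration. The CC family carries its first cysteines side by side and signals through the CCR receptors. Ccl2 and Ccl7 act through CCR2 on monocytes, and Ccl11, eotaxin, acts through CCR3 on eosinophils. Ccl3, Ccl4 and Ccl5 attract monocytes and T cells, Ccl3 and Ccl5 bind CCR1, and Ccl6 and Ccl9 are CCR1 ligands of rodents. Ccl17 and Ccl22 bind CCR4 on subsets of T cells and are known as products of dendritic cells. FDC belong to the stroma of B cell follicles, whereas BMDC are hematopoietic cells that present antigen to T cells.

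All values are the authors' deposited intensities (signal units), which had been scaled to a trimmed mean of 500 on each array before deposit. The 20th percentile of the arrays, between 8.7 and 15.4 signal units, serves here as a mark of background level and is not a measured limit of detection. Dendritic cell markers were high in BMDC: 8 of 10 were lower in FDC. They summed to 2307 and 2425 signal units on the FDC arrays and 184970 and 151949.5 on the BMDC arrays. The 2 without a call were Flt3 (427 and 82.2 on the BMDC arrays) and Zbtb46 (280 and 498). Macrophage markers (8 of 9 lower in FDC) and granulocyte markers (7 of 8) were high in BMDC too. These counts therefore do not single out dendritic cells. The FDC label was only partly borne out. Of 13 FDC markers 0 were called higher in FDC and 3 lower with limma. The 3 lower were Fcgr2b, Clu and Mfge8, with log2 differences, FDC minus BMDC, of -7.03, -4.92 and -2.18. The defining receptors Cr2 (119.5 and 4.1 on FDC arrays 1 and 2) and Fcer2a (104 and 42.4) were dim. Icam1 (-0.26), Bst1 (0.225) and Cr1l (0.08) differed little. Other FDC markers were brighter in FDC without a call: the adhesion molecule Vcam1 read 6959 and 5764 on the FDC arrays and 108 and 875 on the BMDC arrays (4.27 ± 0.95, SE; adjusted p = 0.0566, limma), and Prnp differed by 2.50 ± 0.57 (adjusted p = 0.0615). The B cell attractant Cxcl13 read 1288 and 64.5 on FDC arrays 1 and 2 and 50.9 and 36.4 on the BMDC arrays (adjusted p = 0.331, limma). Of 10 fibroblast markers 8 were higher in FDC. In bulk RNA, fewer cells of a type and less RNA per cell cannot be told apart.

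FDC and BMDC expressed different CC chemokines. Ccl7 and Ccl11 rose in FDC relative to BMDC, while Ccl5, Ccl6, Ccl9, Ccl17 and Ccl22 fell, and Ccl2, Ccl3 and Ccl4 did not pass the test. This is 7 of 10 genes called with limma (adjusted p under 0.05 over 27022 probe sets), 2 higher and 5 lower, where 8.93% of the probe sets and 11.3% of the 12750 genes tested were called, 5.87% higher and 5.40% lower. All 10 members lay above the filter on dim probe sets, a mean signal of 46.4. Ccl11, at 31.4 and 24.1 on the BMDC arrays, passed it only through FDC, so it could only be called higher. Mast cell markers differed between the same arrays: 4 of 8 rose in FDC and 0 fell, and the 8 summed to 7734 and 14114 on the FDC arrays and 5851 and 1147 on the BMDC arrays. Their part in the chemokine differences was not tested. The median log2 difference, FDC minus BMDC, was -4.47 for the 10 members and -0.03 for all genes tested. The signals of the 2 cell types did not overlap for any of the 10, 3 being higher and 7 lower on both FDC arrays, and 59.2% of all genes tested had no such overlap. Log2 differences are of log2(signal + 14.2), an offset that understates the change of dim genes.

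**Figure D1:**
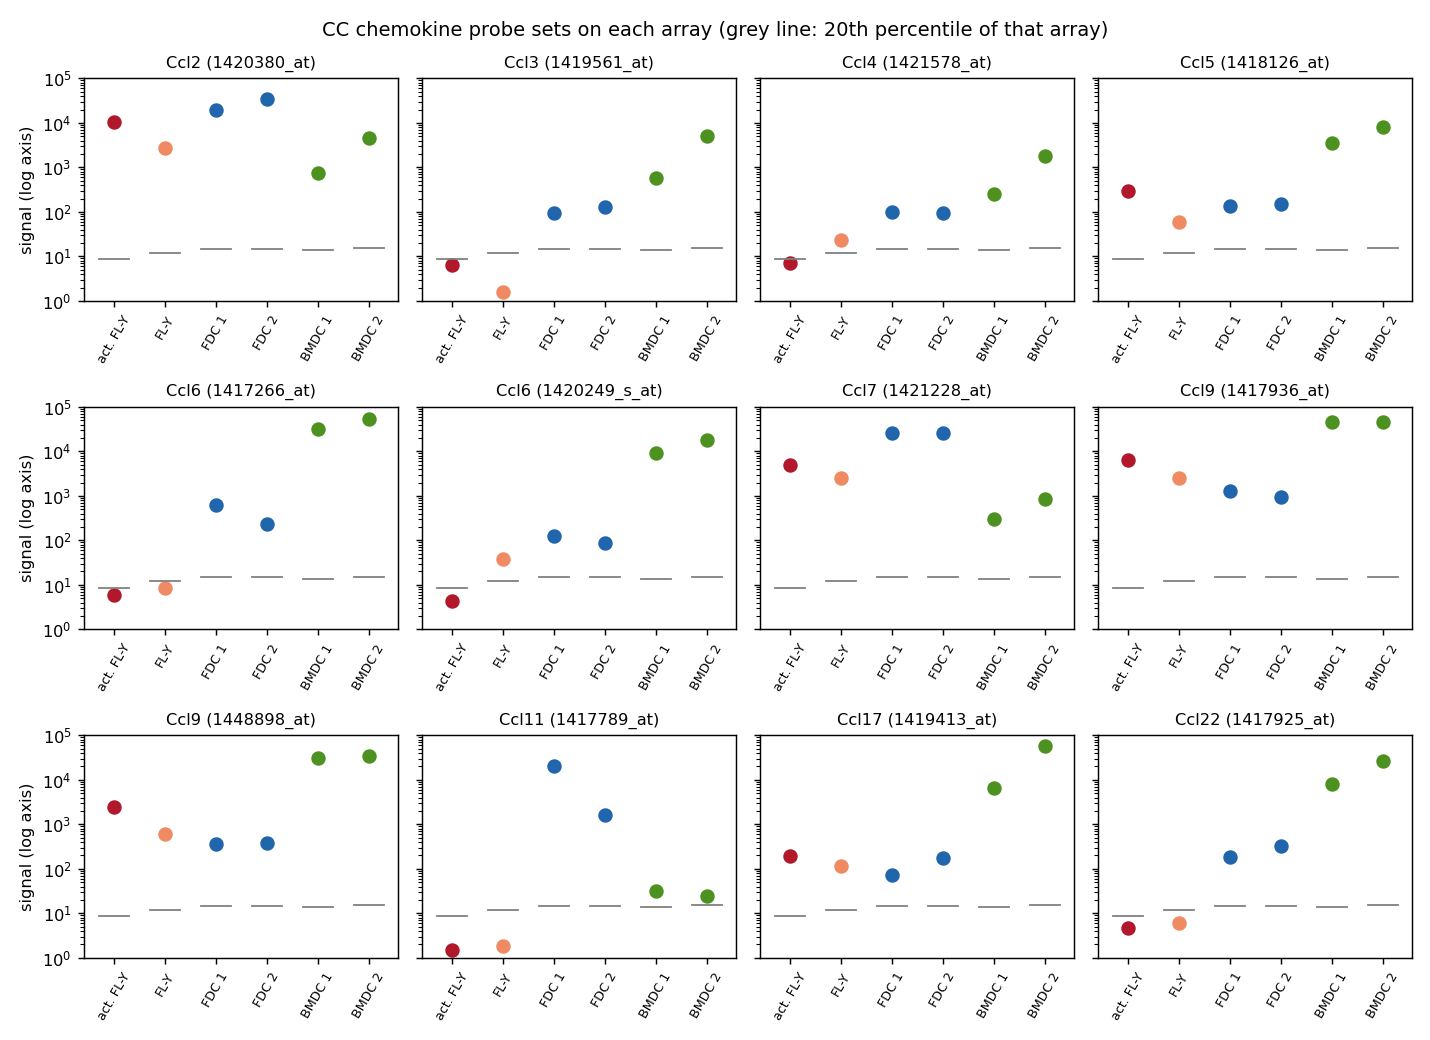
Signal of the 12 CC chemokine probe sets on each of the 6 arrays, on a log axis, 1 point per array, with a grey line at that array's 20th percentile. Ccl7 stood at 25291 and 25285 on the FDC arrays and at 301 and 843 on the BMDC arrays, and Ccl11, Ccl3, Ccl22 and 1 probe set of Ccl6 lay under the grey line on both FL-Y arrays.

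Among the monocyte attractants that act through CCR2, Ccl7 was high in FDC. Its signal was 5055 in activated FL-Y, 2577 in FL-Y, 25291 and 25285 on the FDC arrays, and 301 and 843 on the BMDC arrays. The FDC arrays were nearly equal and both lay far above the BMDC arrays, with FL-Y in between. The log2 difference, FDC minus BMDC, was 5.61 ± 0.57 (SE; adjusted p = 0.00667, limma), and Ccl7 passed the threshold without any 1 array as well (adjusted p from 0.0114 to 0.0224).

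Ccl2 was also brightest on the FDC arrays, with more spread between arrays. Its signal was 10562 in activated FL-Y, 2713 in FL-Y, 19434 and 34408 on the FDC arrays, and 735 and 4559.7 on the BMDC arrays. Both FDC arrays exceeded both BMDC arrays and FL-Y lay between the BMDC arrays, but the BMDC arrays themselves differed 6.20-fold. The difference of 3.81 ± 0.91 (SE; 95% interval 1.505 to 6.11) did not pass the threshold (adjusted p = 0.0681, unadjusted p = 0.00754, limma). It passed without BMDC array 2 (5.11, adjusted p = 0.0188), with the higher offset of 52.2 (adjusted p = 0.0351) and with a variance trend on intensity (adjusted p = 0.0286).

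Ccl11, the eosinophil attractant, was detected well above background level in FDC alone among these cells, and unequally there. Its signal was 1.5 in activated FL-Y, 1.8 in FL-Y, 20007 and 1625 on FDC arrays 1 and 2, and 31.4 and 24.1 on the BMDC arrays. FDC array 1 stood 12.3-fold above FDC array 2, and both stood far above the other 4 arrays. The log2 difference, FDC minus BMDC, was 7.10 ± 1.17 (SE; adjusted p = 0.0242, limma), or 8.78 from the first array of each and 5.42 from the second. With BMDC array 1 left out the adjusted p was 0.0621 and with BMDC array 2 left out 0.0704, so the call was lost in both cases.

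The CCR1 ligands Ccl6 and Ccl9 were high in BMDC on each of their probe sets. For Ccl9, probe set 1417936_at read 6305 in activated FL-Y, 2575 in FL-Y, 1311 and 969 on the FDC arrays, and 46152 and 46029 on the BMDC arrays. The second probe set, 1448898_at, read 2513, 623, 361 and 385, and 30882 and 34604.5, in the same order of arrays. The 2 BMDC arrays were nearly equal, and FL-Y lay above FDC on both probe sets. The log2 differences, FDC minus BMDC, were -5.34 ± 0.39 and -6.40 ± 0.37 (SE; adjusted p = 0.00323 and 0.00264, limma).

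Ccl6 read 5.9 in activated FL-Y, 8.7 in FL-Y, 629.5 and 231 on the FDC arrays, and 31866 and 53722 on the BMDC arrays (1417266_at). Both FL-Y arrays were under their 20th percentiles, while the FDC arrays were above theirs. The other probe set, 1420249_s_at, read 4.4, 37.7, 124.5 and 87.4, and 9218 and 17809.6, in the same order. The log2 differences of the 2 probe sets, FDC minus BMDC, were -6.70 ± 0.61 and -6.76 ± 0.49 (SE; adjusted p = 0.00482 and 0.00323, limma).

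The low Ccl6 signals of the FDC arrays were read beside macrophage markers. Of 9 such markers measured, 8 fell in FDC and 0 rose. Their signals summed to 732 in activated FL-Y, 654 in FL-Y, 3410.0 and 1767 on FDC arrays 1 and 2, and 154196 and 112077.5 on the BMDC arrays, and 1 of the 9 was under the 20th percentile on each FDC array. The 6 pan-leukocyte markers summed to 236, 353, 6961 and 5649, and 145316 and 128879, in that order, and all 6 fell in FDC. Ccl6 and the macrophage sum were both higher on FDC array 1 than on FDC array 2. So were the pan-leukocyte sum and the fibroblast marker sum (295776 and 196004). Single macrophage markers went both ways. Lyz2 (1449 and 557), Cd14 (1083.5 and 446) and Cd68 (377 and 222) were higher on FDC array 1. Csf1r (168 and 243) and Adgre1 (87.7 and 144) were higher on FDC array 2. The part of macrophages or other leukocytes in the Ccl6 signal of FDC was not tested.

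Ccl5, an attractant of T cells and monocytes, fell in FDC. Its signal was 299.5 in activated FL-Y, 59.5 in FL-Y, 138 and 150.4 on the FDC arrays, and 3514 and 8133.5 on the BMDC arrays. The FDC arrays were close to each other and under the activated FL-Y array. The log2 difference, FDC minus BMDC, was -5.08 ± 0.52 (SE; adjusted p = 0.00669, limma). T cells also make Ccl5: 3 of 8 T and NK cell markers tested rose in FDC and 1 fell, the risers being Cd3d, Cd3g and Cd8b1, which T cells carry at their surface. The 9 markers measured summed to 2617 and 1715 on the FDC arrays and 8969 and 3559.8 on the BMDC arrays, but Il7r alone, the gene that fell, made up most of the BMDC sums. Without Il7r the other 8 summed to 2442 and 1355 on the FDC arrays and 449.9 and 314 on the BMDC arrays. The part of T cells in the Ccl5 signal was not tested.

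Ccl3 and Ccl4 were brighter in BMDC without a call. Ccl3 read 6.3 in activated FL-Y, 1.6 in FL-Y, 92.8 and 126 on the FDC arrays, and 589 and 5191 on the BMDC arrays. Ccl4 read 7.2, 23.8, 97.5 and 96.7, and 259 and 1768, in the same order. For both genes the FDC arrays lay close together and BMDC array 2 far above BMDC array 1. The log2 differences, FDC minus BMDC, were -3.85 ± 1.025 for Ccl3 (SE; 95% interval -6.44 to -1.27; adjusted p = 0.0896, limma) and -2.65 ± 0.90 for Ccl4 (95% interval -4.93 to -0.37; adjusted p = 0.158). Both passed the threshold without BMDC array 1, Ccl3 at -5.41 (adjusted p = 0.0140) and Ccl4 at -4.00 (adjusted p = 0.0235), and Ccl3 also did with a variance trend on intensity (adjusted p = 0.0494).

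The CCR4 ligands Ccl17 and Ccl22 fell in FDC. Ccl17 read 197 in activated FL-Y, 115 in FL-Y, 71.0 and 173 on the FDC arrays, and 6416 and 58599.9 on BMDC arrays 1 and 2. FDC and FL-Y overlapped at a low level, and the BMDC arrays differed 9.13-fold. The log2 difference, FDC minus BMDC, was -7.26 ± 1.10 (SE; adjusted p = 0.0190, limma), and the call was lost without FDC array 1 (-6.70, adjusted p = 0.0594).

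Ccl22 read 4.7 in activated FL-Y, 6.1 in FL-Y, 188 and 324 on the FDC arrays, and 8256 and 27023 on the BMDC arrays. The FL-Y arrays were under their 20th percentiles and the FDC arrays were not. Its log2 difference, FDC minus BMDC, was -5.84 ± 0.68 (SE; adjusted p = 0.00909, limma), and it was called without any 1 array as well (adjusted p from 0.0120 to 0.0310).

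Because Ccl17 and Ccl22 fell together and Ccl9 differed between the FL-Y arrays, the 250 bases before the annotated start of these 3 genes are shown. RefSeq (build GRCm38.p6) windows matched 5 of the 10 members, Ccl3, Ccl6, Ccl9, Ccl17 and Ccl22. Each was searched on both strands for a kappa B motif (GGG, any 5 bases, CC), a STAT6 motif (TTC, any 4 bases, GAA) and a TATA box (TATAAA), and matches are in capitals. The Ccl17 window is chr8:94810203-94810452 (+), the Ccl22 window chr8:94745434-94745683 (+) and the Ccl9 window chr11:83578637-83578886 (-).
Ccl17: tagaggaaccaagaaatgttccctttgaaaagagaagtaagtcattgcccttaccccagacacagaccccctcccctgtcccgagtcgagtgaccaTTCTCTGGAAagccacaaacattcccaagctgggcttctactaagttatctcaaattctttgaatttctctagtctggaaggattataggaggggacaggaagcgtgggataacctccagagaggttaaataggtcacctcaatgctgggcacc
Ccl22: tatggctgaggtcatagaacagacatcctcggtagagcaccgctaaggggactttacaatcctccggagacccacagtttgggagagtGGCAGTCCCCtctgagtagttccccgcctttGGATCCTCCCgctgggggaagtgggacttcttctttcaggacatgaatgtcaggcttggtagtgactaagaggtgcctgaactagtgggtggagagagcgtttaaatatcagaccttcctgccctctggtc
Ccl9: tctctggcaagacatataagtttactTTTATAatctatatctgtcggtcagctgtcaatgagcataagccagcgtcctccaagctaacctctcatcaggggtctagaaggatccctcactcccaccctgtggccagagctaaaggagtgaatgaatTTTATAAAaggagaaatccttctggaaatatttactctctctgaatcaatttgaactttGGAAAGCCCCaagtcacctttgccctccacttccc

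The Ccl17 window held 1 STAT6 match, TTCTCTGGAA, 154 to 145 bases before the start, and 5.85% of 32851 RefSeq windows of this length held such a match. The Ccl22 window held 2 kappa B matches on the opposite strand, GGCAGTCCCC and GGATCCTCCC. The Ccl9 window held 1 kappa B match, GGAAAGCCCC, on the opposite strand 35 to 26 bases before the start, and 3 TATA box matches, 2 of which overlap. A kappa B match was present in 45.8% of all windows and a TATA box match in 12.4%. The Ccl3 and Ccl6 windows held none of the 3 motifs. A match is a description of these letters and not a measured binding site.

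Members that lie together on a chromosome had the same sign of difference, an arrangement looked at after the values were seen. In the RefSeq annotation (GRCm38.p6), Ccl2, Ccl7, Ccl11, Ccl12, Ccl8 and Ccl1 lie in that order on chromosome 11 with 0 other protein-coding genes between them. Ccl5, Ccl9, Ccl6, Ccl3 and Ccl4 follow after 25 protein-coding genes, again with 0 between them. In the first group, Ccl7, Ccl11 and Ccl8 rose in FDC and Ccl2 was at 3.81 without a call, while Ccl12 fell (-4.32 ± 0.41, SE; adjusted p = 0.00530, limma). Ccl12, at 12.5 and 6.6 on the FDC arrays, passed the filter only through BMDC, so it could only be called lower. In the second group Ccl5, Ccl9 and Ccl6 fell, and Ccl3 and Ccl4 were negative without a call. Ccl22 and Ccl17, on chromosome 8, both fell, and the 1 protein-coding gene between them, Cx3cl1, which encodes the chemokine of another family, had differences of 0.32 ± 0.45 and 0.17 ± 0.77 on its 2 probe sets (SE; adjusted p = 0.724 and 0.922, limma).

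**Figure D2:**
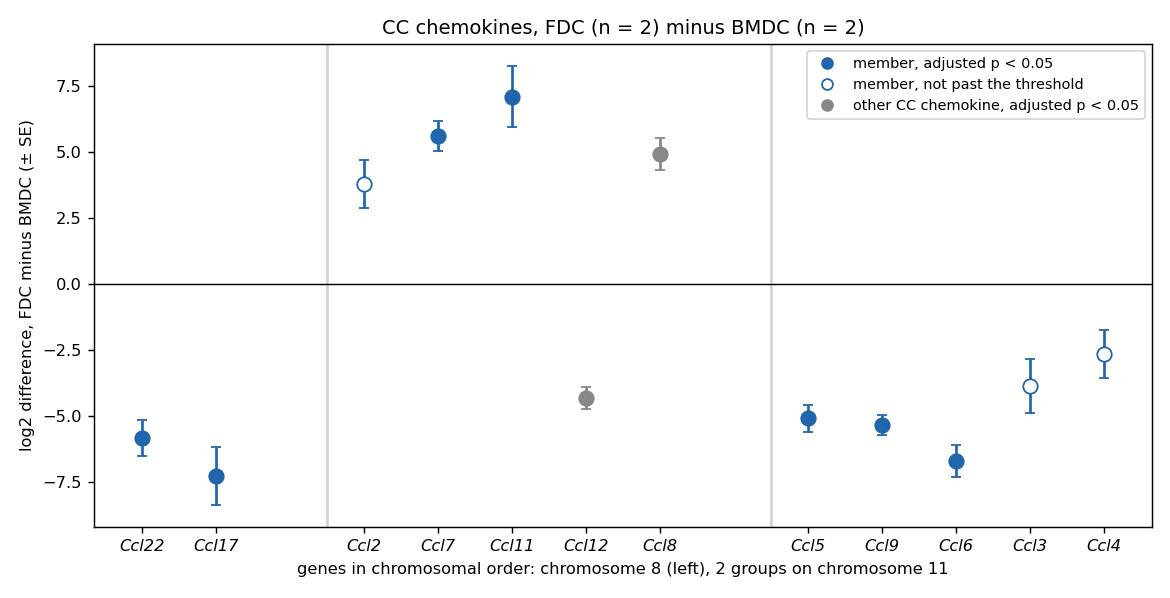
Log2 difference, FDC minus BMDC, with its SE (2 arrays of each), for CC chemokine genes in their order on chromosome 8 (left) and in 2 groups on chromosome 11; filled points passed an adjusted p of 0.05. Members of the first group on chromosome 11 are positive (Ccl2 3.81, Ccl7 5.61, Ccl11 7.10), and those of the other groups lie between -7.26 (Ccl17) and -2.65 (Ccl4).

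The other CC chemokines were measured on fewer usable probe sets. Of 12 listed, 8 had a probe set of their own and 5 were tested, of which 1 rose and 2 fell. Ccl8, a monocyte attractant, read 21002 and 7303.5 on the FDC arrays and 440.0 and 346 on the BMDC arrays. Activated FL-Y read 7.1 and FL-Y 45.1. Its log2 difference, FDC minus BMDC, was 4.94 ± 0.60 (SE; adjusted p = 0.0105, limma). Ccl24, another CCR3 ligand, read 18.6 and 103 on the FDC arrays and 14758 and 4395 on the BMDC arrays, a difference of -7.02 ± 0.86 (adjusted p = 0.0106). Ccl11 and Ccl24, which share CCR3, thus had opposite directions between FDC and BMDC.

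Receptors for these ligands were read on the same arrays. Of 11 CCR genes listed, 10 had a probe set of their own and 4 were tested, of which 3 fell in FDC and 0 rose (median log2 difference -6.09). Ccr1 read 7.1 and 214 on the FDC arrays and 6921 and 8813 on the BMDC arrays (-6.81 ± 1.11, SE; adjusted p = 0.0240, limma). Ccr2 read 52.1 and 2.6 on the FDC arrays and 4855 and 7901 on the BMDC arrays (-7.54 ± 0.74; adjusted p = 0.00594). Ccr2 and Ccr6 (6.9 and 98.1 on the FDC arrays) passed the filter only through BMDC, so they could only be called lower. The receptor counts and their median are partly set by that filter. The signals of Ccr3 and Ccr4 did not exceed 62.1 on any of the 6 arrays. Among the 4 atypical receptors, which bind chemokines without the usual signalling, Ccrl2 fell (-2.17 ± 0.39; adjusted p = 0.0309) and the other 3 were not called.

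The 2 arrays of each cell type differed for many members. On BMDC array 2, 7 of the 10 genes (Ccl2, Ccl3, Ccl4, Ccl5, Ccl7, Ccl17 and Ccl22) were at least 1 log2 unit higher than on BMDC array 1 and 0 were as much lower. Of all genes tested 17.7% differed by that much between the BMDC arrays, and 8.09% were higher on array 2. Ccl17 differed by 3.19, Ccl3 by 3.11, Ccl4 by 2.71 and Ccl2 by 2.61, while Ccl9 differed by less than 0.01 in size and Ccl11 by -0.25. The granulocyte marker sum was 81853 on BMDC array 1 and 141904 on BMDC array 2, the macrophage sum 154196 and 112077.5, the dendritic cell sum 184970 and 151949.5, and the mast cell sum 5851 and 1147. The part of these cells in the difference between the BMDC arrays was not tested.

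The FDC arrays differed by at least 1 for 3 of the 10 genes, where 22.0% of all genes tested did. These were Ccl11 (-3.61, array 2 minus array 1), Ccl6 (-1.39 on its first probe set, but -0.45 on its second) and Ccl17 (1.14). The labelling controls also differed between arrays: their mean signal over that of the hybridisation controls was 0.0994 and 0.273 on FDC arrays 1 and 2 and 0.0859 and 0.417 on BMDC arrays 1 and 2. The FDC and BMDC signals did not overlap on any of the 12 probe sets. FDC minus BMDC therefore had to keep its sign within the first arrays and within the second, but its size varied. For Ccl2 it was 4.70 within the first arrays and 2.91 within the second, for Ccl3 -2.50 and -5.21, and for Ccl17 -6.24 and -8.29.

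**Figure D3:**
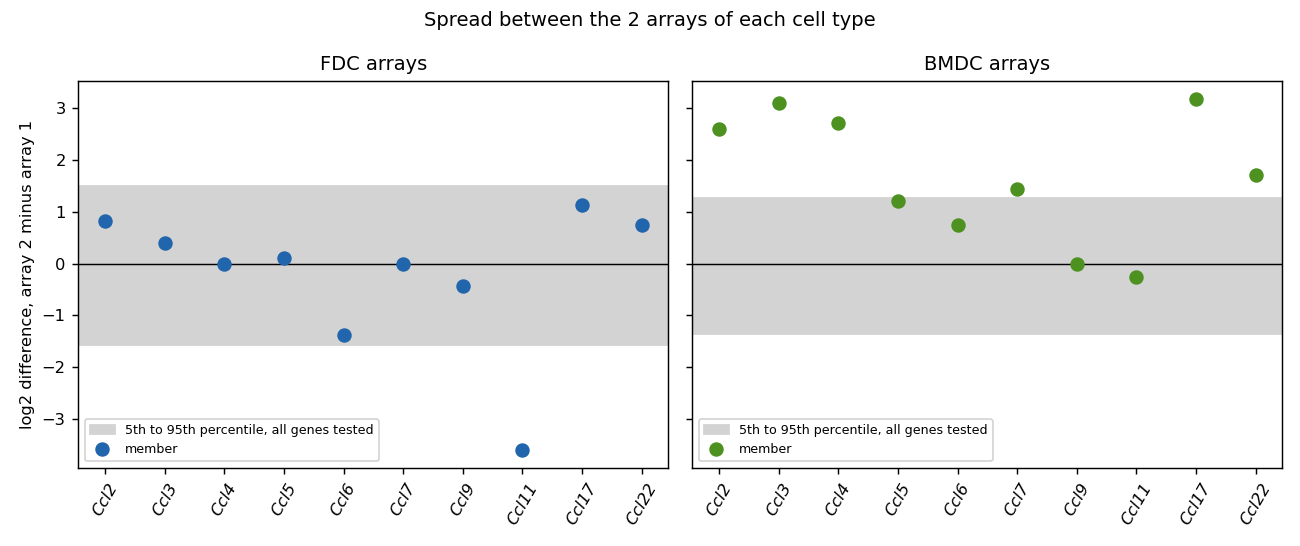
Log2 difference between array 2 and array 1 for the 10 CC chemokine genes in FDC (left) and BMDC (right), 1 point per gene, with the 5th to 95th percentile of all genes tested shaded in grey. In BMDC, Ccl2, Ccl3, Ccl4, Ccl7, Ccl17 and Ccl22 lie above the 95th percentile of 1.27, and in FDC Ccl11 (-3.61) lies below the 5th percentile of -1.58.

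Like FDC, the line FL-Y had lower signals than BMDC for the members that were high in BMDC. It lay under both FDC arrays for Ccl2, Ccl7 and Ccl11. With 1 FL-Y array there is no replicate check and no test, and a gene is counted if it was above the filter and differed at least 4-fold (2 on the log2 scale) from both arrays of the other cell type. Against FDC, 5 of the 10 members (Ccl2, Ccl6, Ccl7, Ccl11 and Ccl22) were lower in FL-Y and 0 were higher, where 4.07% of 12546 genes were lower and 1.99% higher. The log2 differences, FL-Y minus the FDC mean, were -3.25 for Ccl2 and -3.29 for Ccl7. The FL-Y signals of Ccl6 (8.7, first probe set), Ccl22 (6.1) and Ccl11 (1.8) were under that array's 20th percentile of 12.1, and these genes passed the filter only through FDC. With FL-Y set at 12.1 as a bound, FL-Y was at least 31.5-fold lower than the geometric mean of the FDC arrays for Ccl6, 20.4-fold for Ccl22 and 471-fold for Ccl11. Ccl9 was the member that lay above both FDC arrays on each probe set, at 1.18 and 0.72, short of the 4-fold mark. The second Ccl6 probe set was at -1.19 and did not reach that mark. The 6 pan-leukocyte markers summed to 353 in FL-Y and 6961 and 5649 on the FDC arrays, and their part in the lower Ccl6 and Ccl22 of FL-Y was not tested.

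Against BMDC, 7 of the 10 members (Ccl3, Ccl4, Ccl5, Ccl6, Ccl9, Ccl17 and Ccl22) were lower in FL-Y and 0 were higher, where 9.10% of 12599 genes were lower and 6.22% higher. The log2 differences, FL-Y minus the BMDC mean, were -4.15 for Ccl9, -4.20 for Ccl4, -6.19 for Ccl5 and -7.23 for Ccl17. The FL-Y signals of Ccl3 (1.6), Ccl6 (8.7, first probe set) and Ccl22 (6.1) were under that array's 20th percentile. These 3 genes passed the filter only through BMDC, so they could only be counted as lower. Ccl4 (23.8) was above that percentile but dim in FL-Y as well. It too passed the filter only through BMDC and could only be counted as lower. The same bound gave at least 145-fold lower for Ccl3, 1234-fold for Ccl22 and 3419-fold for the first probe set of Ccl6. The second probe set of Ccl6, above that percentile in FL-Y, was at -7.95. Ccl7 was above both BMDC arrays, by 1.60 and 3.04, and it passed the 4-fold mark when BMDC array 2 was left out (3.04). Ccl2 lay between the 2 BMDC arrays. These comparisons use the same FDC and BMDC arrays as the tests above and are not independent of them.

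Activation of FL-Y went with higher Ccl2, Ccl5 and Ccl9. Lymphotoxin beta receptor signals through NF-kB, a family of transcription factors that is known to drive chemokine genes in lymphoid stroma. With 1 array each, there is no replicate check, and a gene is counted at a difference of at least 2-fold (1 on the log2 scale). Of the 10 members 3 were higher on the activated array by that much and 0 lower, and 5 lay under the filter; of 12204 genes above the filter 1.75% were higher and 4.89% lower.

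Ccl2 read 10562 with activation and 2713 without, a log2 difference of 1.96. Ccl5 read 299.5 on the activated array and 59.5 in FL-Y, a difference of 2.09. Ccl9 read 6305 and 2575 on its first probe set and 2513 and 623 on its second, differences of 1.29 and 1.99. These 3 chemokines thus differed in one direction, Ccl9 on each probe set. Outside the members, 3 other CC chemokines were above the filter. Of these 0 were at least 2-fold higher and 1, Ccl20, was lower, at 74.1 with activation and 173 without (-1.09). Ccl7, the neighbour of Ccl2 on chromosome 11, was at 0.97, just under the 2-fold mark, and Ccl17 was at 0.71. Ccl3, Ccl11, Ccl22 and the first probe set of Ccl6 were under the 20th percentile on both FL-Y arrays. Ccl4 (7.2 activated, 23.8 not) and the second probe set of Ccl6 (4.4 activated, 37.7 not) were under it on the activated array alone. No size of change is read for these 5 genes.

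Rescaling the arrays to one median moved the median of all genes, activated FL-Y minus FL-Y, from -0.06 to 0.28 on the log2 scale. Ccl2, Ccl5 and Ccl9 were then at 2.31, 2.46 and 1.64, and Ccl7 (1.32) and Ccl17 (1.05) also passed the 2-fold mark, all 5 still above that median.

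Genes of the NF-kB pathway were read beside the chemokines. Of 15 listed, 12 had a probe set of their own, and 5 of them were at least 2-fold higher on the activated array and 0 lower, with a median log2 difference of 0.64 beside -0.06 for all genes. Nfkb2, the subunit of the alternative pathway, read 4026 on the activated array and 1404 on the FL-Y array. Nfkbia, an inhibitor of NF-kB that it also induces, read 12568 and 5043, and Nfkbie, another inhibitor, 1114 and 273.5. Map3k14, the kinase of the alternative pathway, read 319 and 133, and Tnfaip3, a feedback inhibitor, 2376 and 1157. Of the lymphotoxin and TNF genes 4 of 8 were above the filter and 0 differed by 2-fold, and the receptor Ltbr itself read 2363 on the activated array and 3016 on the FL-Y array.

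**Figure D4:**
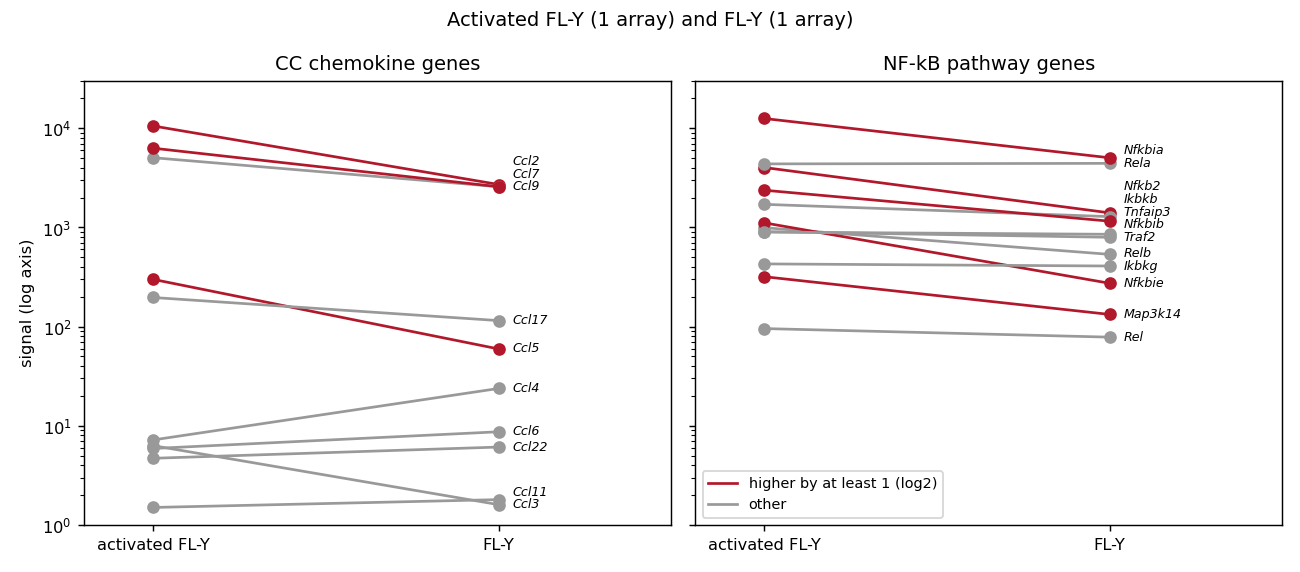
Signal of the 10 CC chemokine genes (left) and 12 NF-kB pathway genes (right) on the activated FL-Y array and the FL-Y array, 1 array each, on a log axis; red lines mark genes above the filter that were at least 1 higher on the log2 scale. Ccl2, Ccl5 and Ccl9 are marked on the left, and Nfkb2, Nfkbia, Nfkbie, Map3k14 and Tnfaip3 on the right.

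Between FDC and BMDC the NF-kB list had 0 rises and 2 falls among 12 genes (Rel -2.97 and Nfkbie -2.65, median -0.91), and the lymphotoxin and TNF list had 0 calls among 7 tested with limma. Genes of the IL-4 and STAT6 pathway, which is known to induce Ccl17 and Ccl22 in dendritic cells and Ccl11 in fibroblasts, moved both ways. Of 9 tested 1 rose and 2 fell. The receptor chain Il4ra rose in FDC (2.10 ± 0.43, SE; adjusted p = 0.0451, limma), reading 3746 and 2305 on the FDC arrays and 621 and 737 on the BMDC arrays. The transcription factor Irf4 fell (-5.01 ± 0.57; adjusted p = 0.00859), and Stat6 itself had a difference of -0.49 ± 0.46 (adjusted p = 0.596).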

How the data were processed

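For each of 6 arrays the authors deposited 1 intensity per probe set; per the labels, total RNA was labelled with biotin. The authors had scaled each array to a trimmed mean of 500 (2% trimmed at each end), as the values show; the program that made them is not given in the sources used here. Gene names come from the platform annotation, and probe sets annotated to several genes were left unnamed. Values were analysed as log2(signal + 14.2), the median over arrays of the 20th percentile. The FDC minus BMDC test was two-sided, with lmFit and eBayes of limma 3.58.1 (R 4.3.3; residual df 2, prior df 3.35), and its p-values were adjusted by Benjamini-Hochberg over the 27022 probe sets whose mean lay above the 40th percentile (a signal of 46.4); the 64 control probe sets were left out. Where a gene had several probe sets, counts of genes used the one whose log2 values averaged highest on the 6 arrays. An exact permutation test with 2 arrays a side has a smallest p of 0.333 and was not used. Precision is limited by there being so few arrays. Members, lists and alternatives were chosen with earlier results of these data known. All probe sets of the members are given; from other lists, up to 6 called genes by size of difference and the 2 brightest uncalled ones could be named, and genes outside this rule were chosen after their values were seen. No protein table was used here.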

Additional observations from a re-analysis of the deposited data

How the results depend on the processing

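The 7 calls among the CC chemokines stood at 7 to 9 under each other offset, scaling, filter or variance setting, and at 6 to 8 without 1 array. No member changed direction between FDC and BMDC under any of 14 alternatives. The signals of the cell types did not overlap for any member. Leaving out 1 array or changing the offset, filter or variance setting therefore could not reverse a direction. All 7 called members were called under each of the 10 alternatives that kept every array. The calls of Ccl11 and Ccl17 were lost when certain single arrays were left out. The count over all 2413 probe sets fell to 1454 with no offset and a floor at a signal of 3.3, to 1433 with no filter, and to between 1312 and 2090 without 1 array, and it rose to 3119 with the offset of 52.2 and to 3118 with a variance trend on intensity. The 12 calls in the other chemokine, receptor and pathway lists became 6 to 10 without 1 array, lowest without BMDC array 2 (6) and FDC array 1 (7). With the arrays rescaled to one median, 5 members instead of 3 passed the 2-fold mark on the activated FL-Y array, and 8 instead of 7 the 4-fold mark for FL-Y against BMDC. Array numbers are shared by FDC and BMDC, but nothing in the labels pairs the samples; with the number as a replicate block 8 members were called (Ccl2 too, adjusted p = 0.0377), and 2392 probe sets. Across probe sets, not independent of each other, array 2 minus array 1 in FDC had an r of 0.109 with that in BMDC. The causes of these changes were not tested beyond fewer arrays or other genes being fitted. Signals near background level limit Ccl3, Ccl11, Ccl22 and the first probe set of Ccl6 in FL-Y, whose differences depend on the offset: that of Ccl6, FL-Y minus FDC, was -4.12 with the offset of 14.2, -5.46 with the floor and -2.85 with the offset of 52.2.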

Other observations

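Among the 10 members, the log2 profiles over the 6 arrays were most alike for Ccl6 and Ccl22 (Pearson r = 0.987), Ccl3 and Ccl4 (0.985) and Ccl3 and Ccl22 (0.980), and Ccl2 was most like Ccl7 (0.934). The lowest was that of Ccl7 with Ccl9 (-0.93). These are descriptions over 6 arrays of 4 kinds of cell, in which any gene that separates BMDC from the rest scores high. Set against 12640 other named genes, the closest profile to that of Ccl6 was Pla2g4c (r = 0.9995), to Ccl22 Fgl2 (0.9989), to Ccl4 the cytokine Osm (0.9988), to Ccl17 Cd5l (0.993), to Ccl9 Acsl5 (0.992) and to Ccl11 the protease Pcsk5 (0.995).

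Of 6 genes linked to dendritic cell activation, Cd86, Tnf, Ltb and Irf4 were higher on BMDC array 2, whereas Ccr7 and H2-Aa were lower. They were picked after their values were seen, so their count says nothing about the state of the cells. Other dendritic cell markers went both ways: Flt3 read 427 and 82.2 on BMDC arrays 1 and 2 and Zbtb46 280 and 498. Of all genes tested, 17.7% differed by at least 1 log2 unit between the BMDC arrays, and 8.09% were higher on array 2 by that much. The costimulator Cd86 read 848 on BMDC array 1 and 3357 on BMDC array 2, the cytokines Tnf 199.9 and 932 and Ltb 573 and 3069, and the transcription factor Irf4 2162 and 5217. Ccr7, the receptor that guides mature dendritic cells to lymph nodes, read 7009 and 5173 and H2-Aa, a class II chain, 51841.5 and 40411.

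Ccl20, which acts through CCR6, was picked after its values were seen. It read 74.1 on the activated FL-Y array and 173 on the FL-Y array. The FDC arrays read 27.2 and 4.4 and the BMDC arrays 8.4 and 5.4. FDC array 1 was above its 20th percentile of 14.7.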
